A study of Homo sapiens with 18 samples.

Results

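The 10 genes described here encode the ubiquitin-editing machinery that sits on the NF-kB signalling pathway. They were chosen by name, as the rows of the count table whose Ensembl identifiers map to TNFAIP3, TNIP1, TNIP2, TNIP3, CYLD, OTULIN, BIRC2, BIRC3, RNF31 and RBCK1, and they are 10 of the 63677 genes in the table. The choice was made with earlier results of these data known. Counts of members set beside shares of all genes therefore describe this set and carry no test. All 10 were found, and 9 had enough counts to be tested among 16678 genes. RNF31 was not tested.

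When a Toll-like receptor or a TNF receptor is engaged, ubiquitin ligases attach chains of ubiquitin to the receptor complex, and these chains act as a scaffold on which the kinases that switch on NF-kB assemble. The cellular inhibitors of apoptosis cIAP1 (BIRC2) and cIAP2 (BIRC3) and the linear ubiquitin assembly complex, LUBAC, build the chains, whereas A20 (TNFAIP3), CYLD and OTULIN edit or remove them, and the ABIN proteins (TNIP1, TNIP2 and TNIP3) bind ubiquitin and partner with A20. A20 is also a textbook NF-kB target gene, which makes it part of a negative feedback loop in monocytes and macrophages.

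The 18 libraries were prepared from THP-1, a human monocytic leukaemia cell line, with a 3′ end protocol (QuantSeq) that gives 1 fragment per transcript. Cells were transfected with 25 nM of an siRNA targeting TRAFD1 (KD), transfected with 25 nM of a non-targeting control siRNA (SCR), or left without siRNA (WT). The labels describe WT both as untreated and as given the transfection mix alone, so that the reagent and the siRNA cannot be told apart in a difference between SCR and WT. At 72 h after transfection, cells of each condition received lipopolysaccharide (LPS), a bacterial ligand of Toll-like receptor 4, at 10 ng/ml or medium alone for 4 h. The 6 groups held 3 libraries each, which carry the numbers 1 to 3 in the unstimulated state and 4 to 6 in the stimulated state. All of them come from 1 cell line with 1 siRNA sequence against TRAFD1, and nothing in the labels says whether the triplicates were separate experiments, so the p-values measure only the spread between these cultures.

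Libraries held 8206023 to 22344279 counts, and levels are given as CPM, that is counts scaled to a library size of 1000000, with library sizes adjusted by the TMM method. Because each transcript gives 1 fragment, CPM needs no division by length, but reads were counted only in the last 500 bases of each gene, a stretch that RBCK1 and RNF31 share with other genes, so an order of levels between genes carries that limit. The monocytic markers CD14, LYZ, ITGAM, CSF1R, CD33 and SPI1 lay between 8.52 and 115 CPM in every library, MPO between 0.16 and 2.36 CPM, while HBB was at 0 and CD3E, MS4A1, EPCAM, KRT18 and ALB reached at most 0.46 CPM. CD247 and COL1A1 reached 1.28 and 2.94 CPM. The siRNA target TRAFD1 averaged 20.5 ± 1.99, 23.7 ± 3.38 and 8.67 ± 3.14 CPM in unstimulated WT, SCR and KD (SD, n = 3), and its log2 difference between KD and SCR was -1.45 with an SE of 0.23 (edgeR adjusted p = 0.0277). With LPS the averages were 17.0 ± 4.76, 22.7 ± 4.42 and 14.5 ± 1.12 CPM, and the difference between KD and SCR was -0.65 (SE 0.22) with an edgeR adjusted p of 0.262, so the knockdown did not pass the test in the stimulated state. Within KD, TRAFD1 rose with LPS (log2 0.73, edgeR adjusted p = 0.0456). Its LPS responses in WT and SCR did not pass (-0.27 and -0.07, adjusted p 0.491 and 0.872). The LPS labels were checked on TNF and NFKBIA, which rose in all 3 conditions, by 3.16, 1.73 and 1.40 for TNF and by 2.46, 1.83 and 1.94 for NFKBIA (log2 fold changes in WT, SCR and KD).

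The stretches of 250 bases before the transcription start are shown for TNFAIP3, BIRC3, TNIP1 and TNIP3, the 4 members with the largest LPS responses, and for BIRC2 as the paralogue of BIRC3 whose LPS comparisons did not pass the test. They are RefSeq promoter sequences on GRCh38.p14, written 5′ to 3′ on the strand of the gene. Capitals mark matches on either strand to the 10-base NF-kB consensus motif.

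TNFAIP3, chr6:137867009-137867258, plus strand: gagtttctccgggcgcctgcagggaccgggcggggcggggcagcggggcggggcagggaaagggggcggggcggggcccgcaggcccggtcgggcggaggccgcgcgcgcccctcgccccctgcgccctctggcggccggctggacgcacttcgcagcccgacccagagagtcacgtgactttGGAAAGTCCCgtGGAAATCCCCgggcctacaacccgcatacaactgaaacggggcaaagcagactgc

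BIRC3, chr11:102317234-102317483, plus strand: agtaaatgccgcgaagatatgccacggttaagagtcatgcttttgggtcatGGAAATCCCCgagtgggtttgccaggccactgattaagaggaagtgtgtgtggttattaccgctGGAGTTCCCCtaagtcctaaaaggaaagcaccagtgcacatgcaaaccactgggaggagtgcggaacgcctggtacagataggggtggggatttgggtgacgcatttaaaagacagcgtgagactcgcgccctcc

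TNIP1, chr5:151081035-151081284, minus strand: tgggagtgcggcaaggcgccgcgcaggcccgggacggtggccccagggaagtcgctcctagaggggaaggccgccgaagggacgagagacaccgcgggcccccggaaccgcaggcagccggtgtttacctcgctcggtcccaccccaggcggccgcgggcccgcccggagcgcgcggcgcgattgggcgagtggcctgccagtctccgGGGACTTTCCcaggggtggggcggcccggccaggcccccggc

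TNIP3, chr4:121227484-121227733, minus strand: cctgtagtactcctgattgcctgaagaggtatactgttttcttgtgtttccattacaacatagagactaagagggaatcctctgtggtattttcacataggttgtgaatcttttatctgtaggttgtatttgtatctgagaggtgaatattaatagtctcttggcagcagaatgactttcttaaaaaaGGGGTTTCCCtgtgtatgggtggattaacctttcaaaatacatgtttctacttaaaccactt

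BIRC2, chr11:102346964-102347213, plus strand: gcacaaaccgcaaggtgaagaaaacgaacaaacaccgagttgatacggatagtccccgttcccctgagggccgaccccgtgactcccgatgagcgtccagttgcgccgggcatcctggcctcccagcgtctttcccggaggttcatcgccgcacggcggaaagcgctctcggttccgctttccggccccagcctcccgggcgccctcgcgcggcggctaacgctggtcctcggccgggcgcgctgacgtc

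TNFAIP3 held matches at 67 to 58 and at 55 to 46 bases before the start, and BIRC3 at 199 to 190 and at 135 to 126 bases. TNIP1 held 1 match at 42 to 33 bases in 1 of its 2 listed promoters, and TNIP3 held a match on both strands at the same bases in 2 of 3 promoters (62 to 53 bases before the start in the one shown). In CYLD, 2 of 3 promoters held a match, 1 of them at 189 to 180 bases before the start and the other over the first bases of the transcript. TNIP2, OTULIN, BIRC2, RNF31 and RBCK1 had none in any listed promoter, so that 5 of 10 members and 7 of their 17 promoters held at least 1 match. Of all 35116 promoters in the table (250 bases before to 50 after the start), 2075 (5.91%) held at least 1 match and 259 (0.74%) at least 2. A match is a description of the letters in this window and does not show binding.

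The first question was how the 10 genes responded to LPS. In cells without siRNA, 5 of the 9 members tested rose, namely TNFAIP3, TNIP1, TNIP3, CYLD and BIRC3, against 7.01% of all genes tested, and 0 of 9 fell, against 7.26% of all genes. In SCR cells 6 rose (the same 5 and OTULIN), against 8.64%, and 1 (RBCK1) fell, against 8.56%. In KD cells 5 rose (those that rose in WT), against 6.41%, and 1 (RBCK1) fell, against 5.05%. The median log2 fold change of the 9 members was 0.78 in WT, 0.46 in SCR and 0.33 in KD, where the medians over all genes were -0.030, -0.027 and -0.0029. In a bulk culture, more transcripts per cell and more cells that express a gene cannot be told apart. Mitochondrial genes took 3.19% to 3.37% of the counts in WT, 3.28% to 3.47% in SCR and 3.87% to 4.86% in KD without LPS, and 3.82% to 4.45%, 3.72% to 5.20% and 4.28% to 5.14% with it. The part of this share in the LPS responses was not tested.

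**Figure D1:**
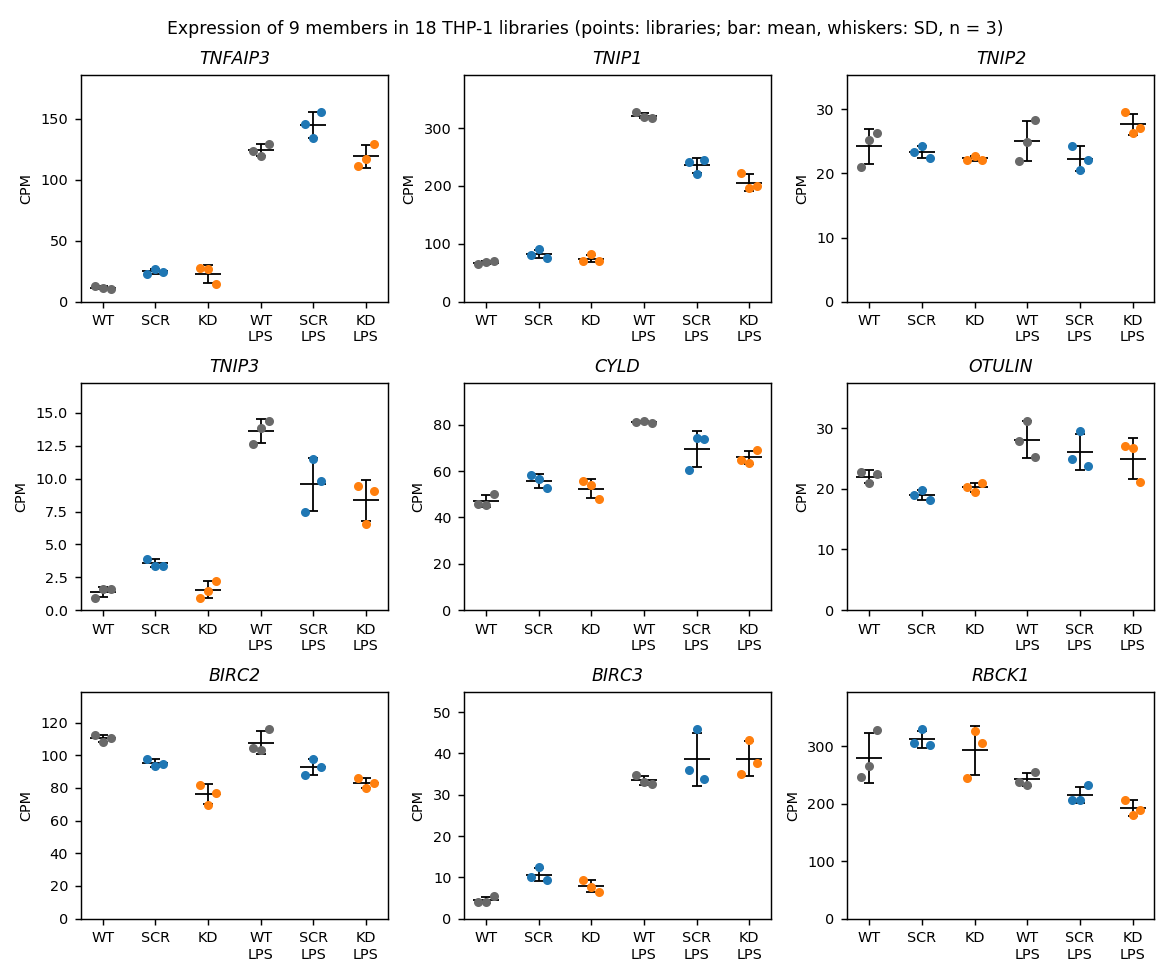
Level of each of the 9 tested members (vertical axis, CPM, from 0) in the 6 groups (horizontal axis). Each point is 1 library (WT grey, SCR blue, KD orange), the bar is the mean of 3 libraries and the whiskers are the SD. TNFAIP3, TNIP1, TNIP3 and BIRC3 lie higher in every LPS library than in every unstimulated library, whereas TNIP2 and BIRC2 show no such separation.

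TNFAIP3 (ENSG00000118503, chr6:138188351-138204451 on GRCh37, plus strand) encodes A20, a deubiquitinase and ubiquitin ligase that restrains NF-kB signalling. Without LPS it lay at 12.8, 11.4 and 10.4 CPM in the WT libraries, at 22.6, 27.1 and 24.5 CPM in those of SCR and at 27.5, 26.5 and 14.5 CPM in those of KD. With LPS it lay at 124, 119 and 130 CPM in the WT libraries, at 146, 134 and 155 CPM in those of SCR and at 111, 117 and 129 CPM in those of KD. All stimulated libraries were above all unstimulated ones, and KD replicate 3 stood below the other KD libraries without LPS. The LPS response was 10.8-fold in WT (log2 3.43, SE 0.17, edgeR adjusted p = 4.05e-12), 5.88-fold in SCR (log2 2.55, SE 0.16, adjusted p = 3.68e-10) and 5.20-fold in KD (log2 2.38, SE 0.16, adjusted p = 1.67e-09).

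The ABIN family bind linear ubiquitin and A20. TNIP1 (ABIN1; ENSG00000145901, chr5:150409506-150473138, minus strand) was the most abundant of them, at 64.8, 68.3 and 69.6 CPM in the WT libraries, at 80.8, 90.6 and 75.4 CPM in those of SCR and at 70.8, 81.5 and 70.9 CPM in those of KD without LPS. With LPS it lay at 327, 320 and 318 CPM in the WT libraries, at 242, 221 and 244 CPM in those of SCR and at 223, 196 and 199 CPM in those of KD. The stimulated WT libraries stood above all stimulated SCR and KD libraries, while those of SCR and KD overlapped. Its response was 4.76-fold in WT (log2 2.25, SE 0.09, edgeR adjusted p = 2.62e-13), 2.86-fold in SCR (log2 1.52, SE 0.09) and 2.77-fold in KD (log2 1.47, SE 0.09).

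TNIP3 (ABIN3; ENSG00000050730, chr4:122052563-122148621, minus strand) was the member of the family with the fewest transcripts. Without LPS it lay at 0.90, 1.63 and 1.60 CPM in the WT libraries, at 3.91, 3.38 and 3.39 CPM in those of SCR and at 0.94, 1.49 and 2.25 CPM in those of KD, where 3 counts correspond to between 0.133 and 0.274 CPM in these libraries. With LPS it lay at 12.6, 13.9 and 14.4 CPM in the WT libraries, at 7.44, 11.5 and 9.85 CPM in those of SCR and at 9.44, 6.54 and 9.07 CPM in those of KD. Every stimulated library exceeded every unstimulated one, and WT was the highest group with LPS although SCR was the highest without it. The log2 responses were 3.31 (SE 0.28), 1.43 (SE 0.26) and 2.42 (SE 0.29) in WT, SCR and KD, with edgeR adjusted p of 2.57e-08, 0.000597 and 4.68e-06.

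TNIP2 (ABIN2; ENSG00000168884, chr4:2743375-2758069, minus strand), which also stabilises the kinase TPL2, ranged only from 20.5 to 29.5 CPM over all 18 libraries. Its LPS response was 0.05 (95% interval -0.21 to 0.31) in WT, -0.07 (-0.33 to 0.19) in SCR and 0.30 (0.044 to 0.56) in KD on the log2 scale, and none passed the test (edgeR adjusted p 0.854, 0.762 and 0.124). Within the family, TNIP1 held 72.6%, 75.3% and 75.6% of the summed counts of the 3 genes in unstimulated WT, SCR and KD, and 89.3%, 88.1% and 85.1% with LPS. TNIP2 went from 26.0%, 21.4% and 22.8% to 6.96%, 8.34% and 11.4%, and TNIP3 from 1.47%, 3.28% and 1.59% to 3.79%, 3.61% and 3.44%. TNIP1 was thus the most abundant ABIN transcript in every group, and TNIP3 the least.

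The deubiquitinases CYLD and OTULIN had log2 LPS responses between 0.30 and 0.78. CYLD (ENSG00000083799, chr16:50775961-50835846, plus strand) cleaves lysine-linked and linear chains. It lay at 45.8, 45.5 and 49.9 CPM in unstimulated WT against 81.1, 81.6 and 80.6 CPM with LPS. The corresponding values were 58.5, 56.6 and 52.5 against 60.7, 74.4 and 73.8 CPM in SCR, and 55.8, 53.8 and 47.7 against 64.9, 63.6 and 69.1 CPM in KD. Stimulated and unstimulated libraries did not overlap in any condition, and the nearest libraries were 49.9 and 80.6 CPM in WT, 58.5 and 60.7 CPM in SCR, and 55.8 and 63.6 CPM in KD. CYLD rose 1.72-fold in WT (log2 0.78, SE 0.10, edgeR adjusted p = 8.3e-06), 1.25-fold in SCR (log2 0.32, SE 0.10, adjusted p = 0.0318) and 1.26-fold in KD (log2 0.33, SE 0.10, adjusted p = 0.0373). Leaving out any 1 SCR library other than replicate 4 ended the SCR call (edgeR adjusted p 0.0505 to 0.128), and leaving out any 1 KD library other than replicate 1 ended the KD call (edgeR adjusted p 0.0582 to 0.172). Without the filter on low counts both calls were lost (edgeR adjusted p 0.123 in SCR and 0.148 in KD), and the KD call was also lost with relative log expression size factors (edgeR adjusted p 0.0504) and in fits of the compared groups alone (edgeR 0.150, DESeq2 0.154).

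OTULIN (ENSG00000154124, chr5:14664773-14699959, plus strand), which removes linear chains only, ranged from 18.2 to 22.8 CPM without LPS and from 21.0 to 31.2 CPM with it. Its log2 response was 0.35 in WT, 0.46 in SCR and 0.30 in KD (SE 0.13 each), with edgeR adjusted p of 0.0769, 0.0181 and 0.143, so only the SCR value passed. The SCR call was lost without SCR replicate 1, 3 or 5 (edgeR adjusted p 0.0569, 0.0667 and 0.111) or without the filter on low counts (edgeR adjusted p 0.0592), and DESeq2 on the same genes also called OTULIN in WT (adjusted p 0.0443). Whether the response differed between conditions was tested on its own, and neither difference from WT passed (edgeR adjusted p 0.871 for SCR and 0.932 for KD).

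Among the ligases, the paralogues BIRC2 and BIRC3, which lie next to each other on chromosome 11, were measured separately. BIRC3 (cIAP2; ENSG00000023445, chr11:102188215-102210134, plus strand) lay at 4.07, 4.00 and 5.38 CPM in the WT libraries, at 10.1, 12.4 and 9.39 CPM in those of SCR and at 9.47, 7.60 and 6.53 CPM in those of KD without LPS. With LPS it lay at 34.7, 33.2 and 32.6 CPM in the WT libraries, at 36.1, 45.8 and 33.7 CPM in those of SCR and at 35.0, 43.3 and 37.8 CPM in those of KD. All 9 stimulated libraries stood above all 9 unstimulated ones. BIRC3 rose 7.37-fold in WT (log2 2.88, SE 0.18, edgeR adjusted p = 8.93e-11), 3.64-fold in SCR (log2 1.86, SE 0.16) and 4.90-fold in KD (log2 2.29, SE 0.17).

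BIRC2 (cIAP1; ENSG00000110330, chr11:102217942-102249401, plus strand) is usually described as the constitutively expressed paralogue. It lay at 113, 108 and 110 CPM in the WT libraries, at 98.0, 93.3 and 94.6 CPM in those of SCR and at 82.0, 69.7 and 77.0 CPM in those of KD without LPS, and at 104, 103 and 116 CPM, 87.9, 97.5 and 92.7 CPM, and 86.0, 79.9 and 83.1 CPM with LPS. Stimulated and unstimulated libraries overlapped in each condition, and the order WT, SCR, KD held in both states. The log2 LPS response was -0.03 (95% interval -0.22 to 0.15), -0.04 (-0.22 to 0.15) and 0.12 (-0.063 to 0.31) in WT, SCR and KD. BIRC3 therefore made up 3.90% ± 0.64 of the counts of the pair in WT, 10.0% ± 1.49 in SCR and 9.34% ± 1.34 in KD without LPS, and 23.8% ± 1.59, 29.2% ± 2.65 and 31.8% ± 3.14 with LPS (SD, n = 3). BIRC2 stayed the more abundant paralogue in all 18 libraries.

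**Figure D2:**
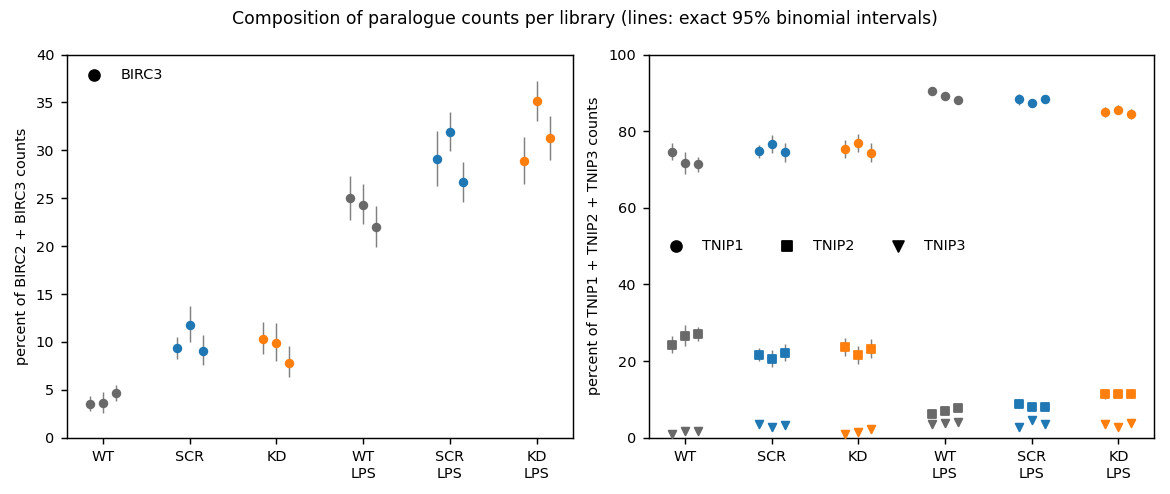
Share of each paralogue in the summed counts of its family (vertical axes, percent, from 0) in each of the 18 libraries, by group (horizontal axes), with exact 95% binomial intervals that cover counting error only. Left, BIRC3 among BIRC2 and BIRC3, between 3.49% and 11.8% without LPS and between 22.0% and 35.1% with it. Right, TNIP1, TNIP2 and TNIP3, where TNIP1 (circles) held at least 71.3% in every library, with TNIP2 as squares and TNIP3 as triangles.

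LUBAC, the complex that makes linear chains, is represented by RBCK1 (HOIL1) and RNF31 (HOIP, the catalytic subunit). RBCK1 (ENSG00000125826, chr20:388142-412783, plus strand) was the most abundant member without LPS, at 246, 266 and 328 CPM in the WT libraries, at 306, 330 and 302 CPM in those of SCR and at 246, 328 and 306 CPM in those of KD without LPS. With LPS the values were 239, 233 and 256 CPM, 207, 207 and 232 CPM, and 207, 180 and 189 CPM. The SCR and KD libraries with LPS all lay below those without, while the WT libraries overlapped. On the log2 scale RBCK1 fell by 0.54 in SCR (SE 0.11, edgeR adjusted p = 0.00187) and fell by 0.61 in KD (SE 0.11, adjusted p = 0.000856), and its value in WT was -0.21 (95% interval -0.44 to 0.023, adjusted p 0.242). The difference in response did not pass, at -0.33 for SCR against WT (edgeR adjusted p 0.495) and -0.40 for KD against WT (adjusted p 0.242).

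The last 500 bases of RBCK1, where a 3′ end protocol places its reads, overlap TBC1D20 on the opposite strand. TBC1D20 lay between 46.6 and 86.8 CPM and its log2 LPS responses were -0.57, -0.55 and -0.41 in WT, SCR and KD, so it moved in the same direction. The strand setting of the counting is not given in the sources used here, and the part of TBC1D20 reads in the RBCK1 values was not tested.

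RNF31 (ENSG00000092098, chr14:24615892-24629869, plus strand) had 0 counts in 9 of the 18 libraries and at most 10 counts in the others. A count of 0 allows up to 3 counts, or 0.133 to 0.294 CPM over the 9 libraries at 0. Its last 500 bases overlap another protein-coding gene on the same strand, ENSG00000259529, which held 34 to 152 counts per library (2.62 to 10.8 CPM). How reads in the shared stretch were assigned is not given in the sources used here, so the low count of RNF31 cannot be read as absence of the transcript. CYLD also overlaps a gene at its end, the antisense transcript ENSG00000260616, which had 0 counts in all 18 libraries.

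**Figure D3:**
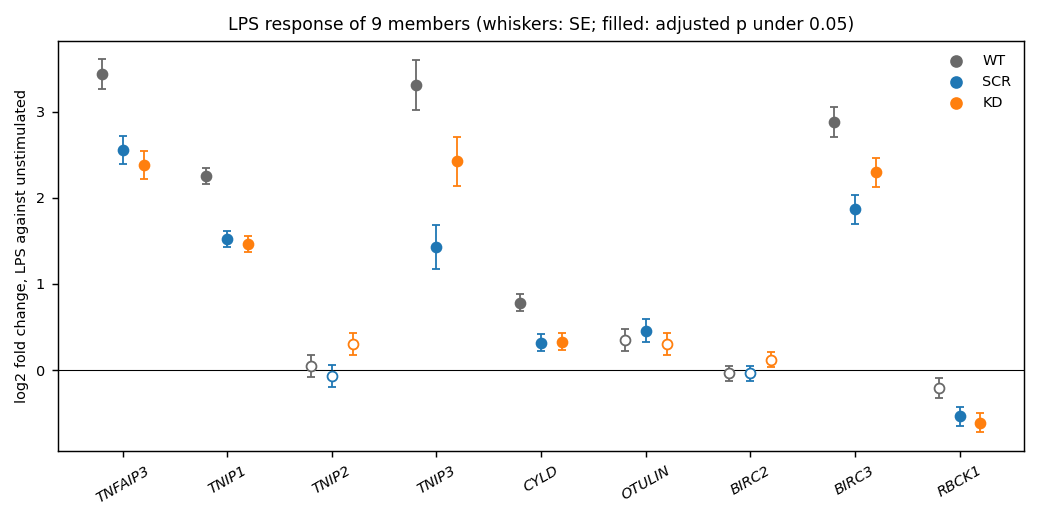
Log2 fold change of LPS against unstimulated (vertical axis) for the 9 tested members (horizontal axis) in WT (grey), SCR (blue) and KD (orange). Points are edgeR estimates, whiskers are the SE, and filled points passed an adjusted p of 0.05. TNFAIP3, TNIP1, TNIP3 and BIRC3 lie between 1.43 and 3.43, with the WT value above the SCR and KD values for each of them.

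The order of the unstimulated WT levels was RBCK1 (280 CPM), BIRC2 (110 CPM), TNIP1 (67.6 CPM), CYLD (47.1 CPM), TNIP2 (24.2 CPM), OTULIN (22.0 CPM), TNFAIP3 (11.5 CPM), BIRC3 (4.48 CPM) and TNIP3 (1.38 CPM). The libraries of TNIP2 (21.1 to 26.4 CPM) and OTULIN (20.9 to 22.8 CPM) overlapped, and those of the other neighbours did not. With LPS the WT order was TNIP1 (322 CPM), RBCK1 (243 CPM), TNFAIP3 (124 CPM), BIRC2 (108 CPM), CYLD (81.1 CPM), BIRC3 (33.5 CPM), OTULIN (28.1 CPM), TNIP2 (25.1 CPM) and TNIP3 (13.6 CPM). OTULIN and TNIP2 again overlapped. The place of RBCK1 depends on how reads shared with TBC1D20 were counted, which was not tested. TNFAIP3 moved up the order from the seventh to the third place and TNIP1 from the third to the first.

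The second question was whether cells given the control siRNA differed from WT in these genes. Between SCR and WT without LPS, 3 of 9 members differed, all higher in SCR, against 3.23% of all genes in either direction. They were TNFAIP3 (log2 1.10, SE 0.17, edgeR adjusted p = 0.000827), BIRC3 (log2 1.22, SE 0.18, adjusted p = 0.000499) and TNIP3 (log2 1.38, SE 0.29, adjusted p = 0.0113), and for each of them all 3 SCR libraries lay above all 3 WT libraries. TNIP3 lost the call without WT replicate 1 (edgeR adjusted p 0.0693) or SCR replicate 1 (adjusted p 0.0631), and when edgeR was fitted to the compared groups alone (adjusted p 0.0535). TNF and NFKBIA, the genes used to check the LPS labels, were higher in SCR as well, by 1.46 and 0.63 (log2, edgeR adjusted p 9.44e-06 and 0.000371). The 3 members were the same ones that, with TNIP1, had the largest LPS responses in WT. The cause of these differences was not tested. The other 6 members lay between -0.22 and 0.28 (edgeR adjusted p 0.0962 to 0.877). The median over the 9 members was 0.25, and over all genes 0.0057.

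With LPS, 0 of 9 members differed between SCR and WT, against 0.114% of all genes. At an unadjusted p under 0.05 there were 3 members (TNIP1, CYLD and BIRC2), against 13.7% of all genes. DESeq2 called 1 (TNIP1), against 2.12% of the 9241 genes to which it gave an adjusted p, and it gave none to 1 member. TNIP1 lay just outside the threshold at -0.45 (SE 0.09, edgeR adjusted p 0.0503), with all 3 SCR libraries below all WT libraries. The deviations of equally numbered libraries from their group means correlated at r = 0.26, 0.16 and 0.25 in this comparison. Pairs with different numbers were not computed as a reference. With the replicate number as a block the value was -0.45 with an edgeR adjusted p of 0.0179. That block was fitted to all 18 libraries, so it also covered groups whose numbers were not taken to pair samples. TNFAIP3 and BIRC3, higher in SCR without LPS, differed by 0.22 (95% interval -0.093 to 0.54) and 0.20 (-0.12 to 0.53). TNF and NFKBIA differed by 0.031 and -0.0012 (edgeR adjusted p 0.950 and 0.998). The other 6 members lay between -0.50 (TNIP3) and -0.11 (OTULIN), with edgeR adjusted p of 0.293 to 0.759.

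The LPS response itself was then compared between SCR and WT by the interaction term. Of the 9 members, 2 differed, against 0.234% of all genes. The response of TNIP1 was smaller in SCR by 0.73 (log2 difference -0.73, SE 0.13, edgeR adjusted p = 0.0113) and that of TNIP3 by 1.88 (-1.88, SE 0.38, adjusted p = 0.0368). TNFAIP3 at -0.88 (SE 0.23, edgeR adjusted p 0.175) and BIRC3 at -1.02 (SE 0.24, adjusted p 0.0979) did not pass. A smaller response in SCR was not particular to the members. TNF (-1.42, edgeR adjusted p = 0.00210) and NFKBIA (-0.63, adjusted p = 0.0329) had it as well. Of 6 alternative fits, TNFAIP3 passed in 4, namely DESeq2 on the same genes (adjusted p 0.0293), edgeR on unfiltered genes (0.00185) and both tools on the compared groups alone (edgeR 0.0128, DESeq2 0.000115). BIRC3 passed in 3 of the 6, with DESeq2 on either set of libraries (adjusted p 0.0148 and 0.0147) and with edgeR on unfiltered genes (0.0145). The other 5 members lay between -0.46 (CYLD) and 0.11 (OTULIN), with edgeR adjusted p of 0.301 to 0.995. TNIP1 averaged 67.6 ± 2.45 CPM in WT and 82.3 ± 7.72 CPM in SCR without LPS, and 322 ± 4.93 and 236 ± 12.8 CPM with it, so the means lay in the opposite order with and without LPS. The same held for TNIP3, with 1.38 ± 0.41 against 3.56 ± 0.30 CPM without LPS and 13.6 ± 0.90 against 9.59 ± 2.03 CPM with it (SD, n = 3). Of these differences within a state, only that of TNIP3 without LPS passed the test. The edgeR adjusted p was 0.0962 for TNIP1 without LPS, 0.0503 for TNIP1 with LPS and 0.375 for TNIP3 with LPS. The TNIP1 call was lost without WT replicate 1 or SCR replicate 2 (edgeR adjusted p 0.0547 and 0.0580), and the TNIP3 call remained in only 2 of the 12 fits that left out 1 library (edgeR adjusted p 0.0301 to 0.156).

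The third question, the effect of the TRAFD1 siRNA against the control siRNA, gave no member past the threshold. Without LPS, 0 of 9 differed between KD and SCR, against 0.0660% of all genes. There were 3 members at an unadjusted p under 0.05 (TNIP3, BIRC2 and BIRC3), against 12.6% of all genes, and DESeq2 called 2 of them (TNIP3 and BIRC2), against 1.68% of the 14413 genes to which it gave an adjusted p. TNIP3 had the widest gap, 1.56 ± 0.66 CPM in KD against 3.56 ± 0.30 CPM in SCR, and no KD library reached the lowest SCR library (log2 -1.21, 95% interval -1.82 to -0.59, edgeR adjusted p 0.0826). BIRC2 was at -0.32 (95% interval -0.51 to -0.14, adjusted p 0.115), also without overlap, and BIRC3 at -0.42 (-0.78 to -0.064, adjusted p 0.303) with overlap. TNFAIP3 was at -0.11 (95% interval -0.45 to 0.23), and without KD replicate 3, its lowest KD library, at 0.13. Outside the members, NFKBIA was at -0.42 without overlap (edgeR adjusted p 0.0655) and TNF at -0.0032 (adjusted p 0.996). The other 5 members lay between -0.14 and 0.09 (edgeR adjusted p 0.547 to 0.885). All KD libraries had a higher mitochondrial share of the counts than all SCR libraries here, and its part in these differences was not tested.

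With LPS, 0 of 9 members differed between KD and SCR, against 0% of all genes. An unadjusted p under 0.05 was reached by 2 members (TNIP1 and TNIP2), against 11.8% of all genes. DESeq2 called 0 members, against 3.01% of the 4714 genes to which it gave an adjusted p, and it gave none to 4 members. TNIP1 was at -0.19 (95% interval -0.38 to -0.0064), TNIP2 at 0.31 (0.051 to 0.57), TNFAIP3 at -0.28 (-0.60 to 0.032) and BIRC3 at 0.0050 (-0.32 to 0.33) on the log2 scale. The other 5 lay between -0.22 and -0.07 (edgeR adjusted p 0.488 to 0.878). TRAFD1 itself did not pass the test between these groups. The difference in LPS response between KD and SCR passed the test for 0 of the 9 members, against 0% of all genes. An unadjusted p under 0.05 was reached by 2 members (TNIP2 and TNIP3), against 7.64% of all genes, and DESeq2 called 0, against 0.018% of the genes to which it gave an adjusted p. The largest difference was that of TNIP3, 0.99 (95% interval 0.19 to 1.79, edgeR adjusted p 0.603), and the other 8 members lay between -0.18 and 0.43 (edgeR adjusted p 0.649 to 0.991).

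**Figure D4:**
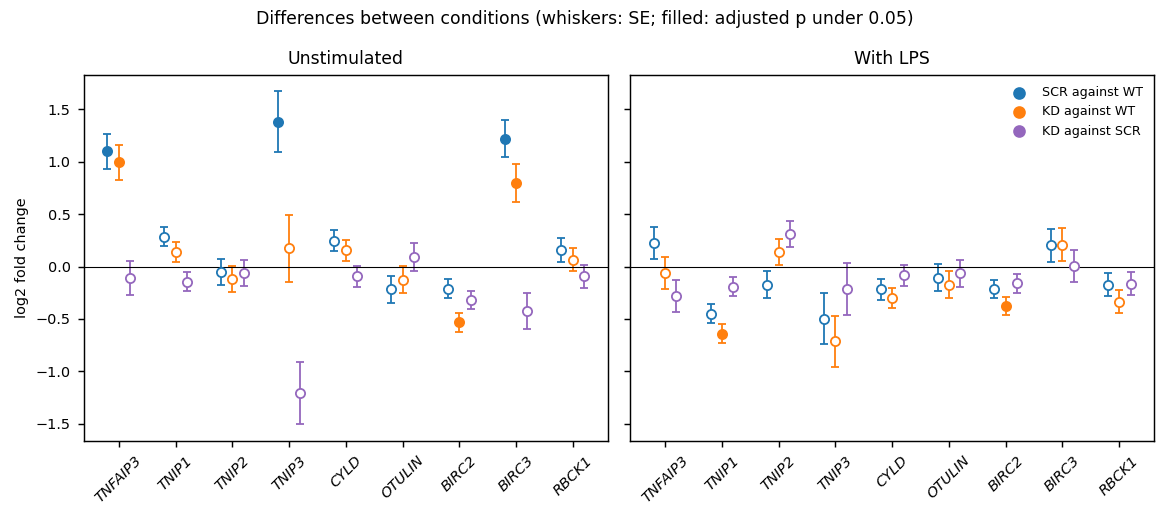
Log2 fold change (vertical axis) of SCR against WT (blue), KD against WT (orange) and KD against SCR (purple) for the 9 tested members (horizontal axis), without LPS on the left and with LPS on the right. Points are edgeR estimates, whiskers are the SE, and filled points passed an adjusted p of 0.05. Filled points are those of TNFAIP3, TNIP3, BIRC2 and BIRC3 on the left and of TNIP1 and BIRC2 on the right, and none belongs to KD against SCR.

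KD was also set against WT, a comparison that combines transfection with an siRNA and the knockdown, and that shares its WT libraries with the comparison of SCR and WT. TRAFD1 was lower in KD than in WT without LPS (log2 -1.23, edgeR adjusted p = 0.00156). With LPS its difference did not pass the test. Without LPS, 3 of 9 members differed, against 11.7% of all genes. TNFAIP3 was higher by 0.99 (SE 0.17, edgeR adjusted p = 0.000727) and BIRC3 by 0.80 (SE 0.18, adjusted p = 0.00681), whereas BIRC2 was lower, at -0.53 (SE 0.09, adjusted p = 0.000618). Set side by side, the values for SCR against WT were 1.10, 1.22 and -0.21, of which the last did not pass (edgeR adjusted p 0.207). All 3 calls between KD and WT were lost when edgeR was fitted to those groups alone (adjusted p 0.0577 for TNFAIP3, 0.110 for BIRC3 and 0.0619 for BIRC2), and DESeq2 on those groups alone lost BIRC3 (adjusted p 0.0975). TNIP3 was at 0.17 (95% interval -0.49 to 0.84) in KD against WT, and its value in SCR against WT was 1.38. The other 5 members lay between -0.12 and 0.15 (edgeR adjusted p 0.354 to 0.765). TNF was higher in KD by 1.45 (edgeR adjusted p 1.1e-05), whereas NFKBIA was at 0.21 (adjusted p 0.129) with overlapping libraries. The mitochondrial share of the counts was higher in all 3 KD libraries than in all 3 WT libraries here, and its part in these differences was not tested.

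With LPS, 2 of 9 members differed between KD and WT, both lower in KD, against 10.8% of all genes. TNIP1 stood at -0.64 (SE 0.09, edgeR adjusted p = 0.000732) and BIRC2 at -0.38 (SE 0.09, adjusted p = 0.0114), each with all KD libraries below all WT libraries. TRAFD1 itself was at -0.23 between these groups (edgeR adjusted p 0.563), with overlapping libraries. TNIP3 (-0.71, adjusted p 0.0657), CYLD (-0.30, adjusted p 0.0573) and RBCK1 (-0.34, adjusted p 0.0558) lay just outside the threshold. Of 6 alternative fits, RBCK1 passed in 6 (largest adjusted p 0.0498, edgeR with relative log expression size factors) and CYLD in 5 (the exception was edgeR on unfiltered genes, adjusted p 0.177). TNIP3 passed in 3, with DESeq2 on the same genes (adjusted p 0.0247) and with both tools on the compared groups alone (edgeR 0.00802, DESeq2 0.0101). The BIRC2 call was lost without WT replicate 6 (edgeR adjusted p 0.0823) or KD replicate 5 (adjusted p 0.0590). The mitochondrial shares of these KD and WT libraries overlapped. The other 4 members lay between -0.17 and 0.21 (edgeR adjusted p 0.422 to 0.851).

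The LPS response differed between KD and WT for 2 of 9 members, against 0.360% of all genes. It was smaller in KD for TNFAIP3 (log2 difference -1.05, SE 0.23, edgeR adjusted p = 0.0457) and for TNIP1 (-0.78, SE 0.13, adjusted p = 0.00725). Outside the members, the response of TNF was smaller in KD as well (-1.76, edgeR adjusted p = 0.000101). NFKBIA, at -0.51, did not pass (adjusted p 0.0851). For TNFAIP3 the unstimulated level was higher in KD, 22.9 ± 7.23 against 11.5 ± 1.19 CPM, while the stimulated levels were 119 ± 9.16 and 124 ± 5.10 CPM (SD, n = 3). For TNIP1 the unstimulated levels were 74.4 ± 6.12 and 67.6 ± 2.45 CPM, and the stimulated level was lower in KD, 206 ± 14.9 against 322 ± 4.93 CPM. The TNFAIP3 call remained in 3 of the 12 fits that left out 1 library (edgeR adjusted p 0.000192 to 0.129) and the TNIP1 call in all 12. The other 7 members lay between -0.89 (TNIP3) and 0.26 (TNIP2), with edgeR adjusted p of 0.162 to 0.932. In edgeR on the compared groups alone the TNFAIP3 difference did not pass (-1.06, adjusted p 0.139), CYLD passed with DESeq2 on the same genes (-0.49, adjusted p 0.0438), and RBCK1 passed without KD replicate 1 (-0.51, edgeR adjusted p 0.0346).

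Other genes of ubiquitin signalling to NF-kB were taken from a list of 26. All 26 were in the table and 23 were tested, and with LPS 2 rose and 2 fell in WT, where 7.01% of all genes rose and 7.26% fell. In SCR 3 rose and 1 fell (all genes 8.64% and 8.56%), and in KD 4 rose and 2 fell (all genes 6.41% and 5.05%). The median log2 response of the list was 0.024, 0.018 and 0.17. PELI1, a ubiquitin ligase of Toll-like receptor signalling, rose from 10.1 ± 1.83 to 26.3 ± 3.46 CPM in WT, from 11.8 ± 0.96 to 24.6 ± 4.16 CPM in SCR and from 7.62 ± 1.09 to 21.2 ± 3.45 CPM in KD (log2 1.38, 1.07 and 1.48). OTULINL, a relative of OTULIN, fell from 80.6 ± 7.36 to 45.7 ± 1.12 CPM, from 86.5 ± 1.57 to 47.6 ± 3.63 CPM and from 88.1 ± 6.26 to 51.9 ± 1.71 CPM, and passed the test in all 3 conditions (log2 -0.82, -0.86 and -0.76).

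TAX1BP1, an adaptor of A20, fell in WT (log2 -0.42, edgeR adjusted p = 0.000656) and KD (-0.29, adjusted p = 0.0193) and was at -0.10 (adjusted p 0.404) in SCR. TRAF2, the adaptor that recruits the cIAPs, rose in WT (log2 0.68, edgeR adjusted p = 0.00825). Its values of 0.35 in SCR and 0.36 in KD did not pass (edgeR adjusted p 0.164 and 0.173). RIPK2, a kinase that carries ubiquitin chains, rose in SCR (0.80, edgeR adjusted p = 0.0107), and the deubiquitinase OTUD4 in SCR (0.31, adjusted p = 0.0456) and KD (0.36, adjusted p = 0.0265). RIPK2 at 0.47 in WT and 0.37 in KD (edgeR adjusted p 0.147 and 0.270) and OTUD4 at 0.29 in WT (0.0727) did not pass. SHARPIN, the third subunit of LUBAC, lay between 17.1 and 27.2 CPM and its LPS responses of -0.09, -0.11 and 0.03 did not pass. Between KD and WT, the list held 1 gene that differed without LPS, N4BP1 (-0.61, edgeR adjusted p = 0.00164), against 11.7% of all genes. With LPS it held 2, N4BP1 (-0.38, edgeR adjusted p = 0.0372) and UBE2D3 (-0.31, adjusted p = 0.0241), against 10.8% of all genes. In the other comparisons of the conditions and of their LPS responses it held 0, against at most 3.23% of all genes.

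The genes with the most similar pattern to each member were ranked by Pearson's r of log2 CPM over the 18 libraries, among 10546 genes with a mean of at least 5 CPM. These values describe libraries that share 6 group means and carry no test. The nearest to TNIP1 were LTB, BID and WTAP (r = 0.99 each), and to BIRC3 PTX3, ENSG00000129277 and CCL4L1 (0.99, 0.99 and 0.98). For TNFAIP3 they were ENSG00000129277, CXCL11 and CCND1 (0.99 each), for TNIP3 SLAMF7, ZMIZ2 and SDC4 (0.97, 0.97 and 0.96), and for CYLD TRIM16, TRIM16L and PTAFR (0.96, 0.96 and 0.95). OTULIN was nearest to TNFAIP8, STARD4 and CD59 (0.89 each), BIRC2 to TARDBP, ABRACL and DHX38 (0.93, 0.92 and 0.91) and RBCK1 to POC1A, BBC3 and WARS1 (0.96, 0.95 and 0.94). No gene came closer to TNIP2 than ZNF142, BOLA1 and RDH14 (0.71, 0.66 and 0.65). Among the members, TNFAIP3 and BIRC3 were the most alike pair over the 18 libraries (r = 0.98), and after subtraction of the group means their r was 0.30, so that the likeness lay in the differences between groups.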

How the data were processed

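RNA of 18 THP-1 cultures in 6 groups of 3 was sequenced with QuantSeq. Per the labels and the study's methods, the authors aligned the reads to GRCh37 with HISAT and counted them with featureCounts in the last 500 bases of each Ensembl gene, and deposited 1 table of raw counts of 63677 genes. All 18 value columns were used. Symbols and GRCh37 coordinates came from GENCODE v44lift37 (55665 rows matched), a later release than the one counted, so overlaps between genes may differ. The binomial intervals of the paralogue shares and the limit of 3 counts cover counting error only, since the reads carry no molecular identifiers here. The intervals of the fold changes rest on the SE of the edgeR test, so they also include the spread between libraries.

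The filter filterByExpr (minimum count 10) left 16678 genes. The main test was edgeR 4.0.16 (R 4.3.3), a quasi-likelihood F test with TMM library sizes and 1 mean per group over all 18 libraries. Its p-values for each of 12 contrasts were corrected over the genes tested with the Benjamini-Hochberg procedure, at a threshold of 0.05. SE is the log2 fold change over the square root of F. The alternatives were DESeq2 1.42.0, relative log expression size factors, no filter, a replicate block, fits on the compared groups alone by both tools (the study's methods name DESeq2, after removal of genes without counts), and leaving out each library.

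The rule for named genes took all 10 members (each comparison gives the leading ones by name and the rest as a range), TRAFD1, TNF and NFKBIA as checks of the labels, up to 6 genes of the pathway list with the smallest adjusted p in the LPS comparisons, and the 3 nearest patterns per member. N4BP1, UBE2D3, SHARPIN, TBC1D20, ENSG00000259529 and ENSG00000260616 were named after their values were seen. The members and lists were chosen with earlier results of these data known. Replicate numbers are shared between WT, SCR and KD within a stimulation state. The correlation of deviations from the group means exceeded 0.1 for all 3 pairs only for SCR and WT with LPS (r = 0.26, 0.16 and 0.25 over 16678 genes), so the numbers were taken to pair samples there alone. Pairs with different numbers were not computed, so the limit of 0.1 has no reference and a pairing is not established. WT and KD replicate 1 reached 0.30, but their replicates 2 and 3 were at 0.0039 and 0.049. The replicate block was fitted to all 18 libraries at once, not to SCR and WT with LPS alone. Protein sequences were not used here, and 1 marker gene is not reported here.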

Additional observations from a re-analysis of the deposited data

Results flagged for a closer look

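The difference in LPS response between conditions, tested by the interaction term in edgeR, brought 4 values forward. Between SCR and WT these were TNIP1, whose response was smaller in SCR (-0.73, adjusted p = 0.0113), and TNIP3 (-1.88, adjusted p = 0.0368). Between KD and WT they were TNFAIP3 (-1.05, adjusted p = 0.0457) and TNIP1 (-0.78, adjusted p = 0.00725). TNF, which is not a member, also had a smaller response in SCR (-1.42, edgeR adjusted p = 0.00210) and KD (-1.76, adjusted p = 0.000101) than in WT. NFKBIA had it in SCR (-0.63, edgeR adjusted p = 0.0329). Both comparisons use the same 6 WT libraries, so the TNIP1 values are not independent of each other. The cause of the smaller responses was not tested.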

How the results depend on the processing

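Of 1431 recomputed log2 fold changes, 1311 kept their direction and their side of the threshold, 33 newly passed it, 50 no longer passed it and 37 changed sign. The number of members past the threshold in KD against SCR without LPS went from 0 to 2 with DESeq2, 1 without the filter and 1 with the replicate block. In SCR against WT with LPS it went from 0 to 1 (TNIP1) with DESeq2, without the filter, with the block, and in both fits of the compared groups alone. In KD against WT without LPS it went from 3 to 0 in edgeR on the compared groups alone. In KD against WT with LPS it went from 2 to 5 with DESeq2 and in both fits of the compared groups alone, and to 4 with relative log expression size factors and with the block. For the LPS response of SCR against WT it went from 2 to 4 with DESeq2 on either set of libraries and without the filter, and for that of KD against WT from 2 to 1 in edgeR on the compared groups alone. DESeq2 on the same genes called 1.68% of the genes with an adjusted p in KD against SCR without LPS. Its share was 2.12% in SCR against WT with LPS, 15.3% in KD against WT with LPS and 0.51% for the LPS response of SCR against WT. Shares over all genes were not computed for the other fits, so their member counts have no such background. The causes were not tested. The block could not be used for LPS against unstimulated, where no number is shared, and it changed the calls of no other comparison of conditions. Outside SCR and WT with LPS the samples were taken to share only a number.

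Leaving out 1 library gave 1 to 2 members in KD against WT with LPS, 0 to 2 for the LPS response of SCR against WT and 1 to 3 for that of KD against WT. Shares over all genes were not computed for these fits either, so these counts cannot be read as results about the members.

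Sign changes concerned main values of at most 0.17 in size (TNIP3, KD against WT without LPS). Some of the spans with 1 library left out were wider than that. In KD against SCR with LPS, BIRC3 (0.0050) became -0.0062 with DESeq2, -0.0088 without the filter, -0.0060 with relative log expression size factors and -0.00048 in edgeR on the compared groups. BIRC2 in the LPS response of SCR against WT became 0.0097 without the filter. CYLD in the LPS response of KD against SCR (0.0096) became -0.018, -0.00090 and -0.015 with DESeq2, no filter and relative log expression, and -0.0065 with DESeq2 on the compared groups. With 1 library left out, the log2 fold changes that changed sign ran from -0.045 to 0.14 (TNIP2, LPS in WT), -0.076 to 0.0027 (BIRC2, LPS in SCR), -0.15 to 0.016 (TNIP2, SCR against WT without LPS), -0.27 to 0.13 (TNFAIP3) and -0.18 to 0.019 (RBCK1, both KD against SCR without LPS). They ran from -0.13 to 0.042 (OTULIN) and -0.086 to 0.15 (BIRC3) in KD against SCR with LPS, and from -0.19 to 0.45 (TNIP3) and -0.022 to 0.20 (RBCK1) in KD against WT without LPS. For the LPS responses they ran from -0.040 to 0.054 (BIRC2, SCR against WT), from -0.12 to 0.016 (TNIP1), -0.085 to 0.060 (CYLD) and -0.18 to 0.011 (RBCK1, all KD against SCR), and from -0.13 to 0.061 (OTULIN, KD against WT).

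Depth limits TNIP3, whose unstimulated WT and KD libraries held the fewest counts of the members tested, and RNF31, which could not be tested.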
